A study of Mus musculus with 2 samples.

Results

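The 7 genes described here encode channels, a pump subunit, a cotransporter and water channels of the lung liquid: Scnn1a, Scnn1b, Scnn1g, Atp1b1, Slc12a2, Aqp1 and Aqp5. They were chosen by name for their role in clearing or making that liquid, out of 21646 protein-coding genes on chromosomes 1 to 19 and X. Sites bound by the protein CTCF were assigned to them when the summit of the site lay in the gene or within 50000 bp of either end. This gave 52 of 64732 sites, and no site was assigned to more than 1 of the genes. CTCF binding had been mapped by ChIP-seq in whole lung from B6NCrl mice at postnatal day 0, with sex not collected. There was 1 group of 2 replicates whose labels name 1 donor. Differences between them may thus be technical only, and no other group was analysed here. The sites are the authors' optimal list, filtered by the irreproducible discovery rate (IDR), and each site's signal, a value the authors gave each peak on a scale not stated, was read in each replicate's own peak list. Read depth is unknown, because the lists hold no read counts, and peak lists hold no expression with which to check the tissue label. In whole lung, binding in fewer cells and weaker binding in each cell cannot be told apart.

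Before birth the lung epithelium secretes chloride and liquid into the future airspaces, and the basolateral cotransporter NKCC1, encoded by Slc12a2, brings in the chloride. At birth the epithelium turns to absorbing sodium. The epithelial sodium channel ENaC, built from the alpha, beta and gamma subunits of Scnn1a, Scnn1b and Scnn1g, lets sodium in at the apical side, and the sodium-potassium pump, whose beta 1 subunit is encoded by Atp1b1, sends it out at the base. Water follows, partly through aquaporins such as aquaporin 5 of alveolar type 1 cells and aquaporin 1 of the capillary endothelium. CTCF recognises its DNA motif through an array of zinc fingers and halts cohesin, and it sits at many loop anchors and domain boundaries.

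A site within 1000 bp of a transcription start site (TSS) was listed at 6 of the 7 genes, Aqp5 being the exception, against 39.8% of all protein-coding genes. At the outermost TSS the count was 5 of 7, against 35.3% of all, since the site of Scnn1b lay at an internal start. Sites in the body were listed at 4 of 7, against 56.5% of all. Sites within 50000 bp were listed at 7 of 7, against 87.7% of all, a count close to that background. Of the 52 sites, 22 lay upstream, 8 in a gene body and 22 downstream of the 7 genes. By annotation, 25 were intergenic, 13 in introns, 7 in coding exons, 4 in untranslated regions and 3 in introns of a non-coding gene. The number of sites differed widely between the genes, from 2 at Scnn1g to 17 at Scnn1a.

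**Figure D1:**
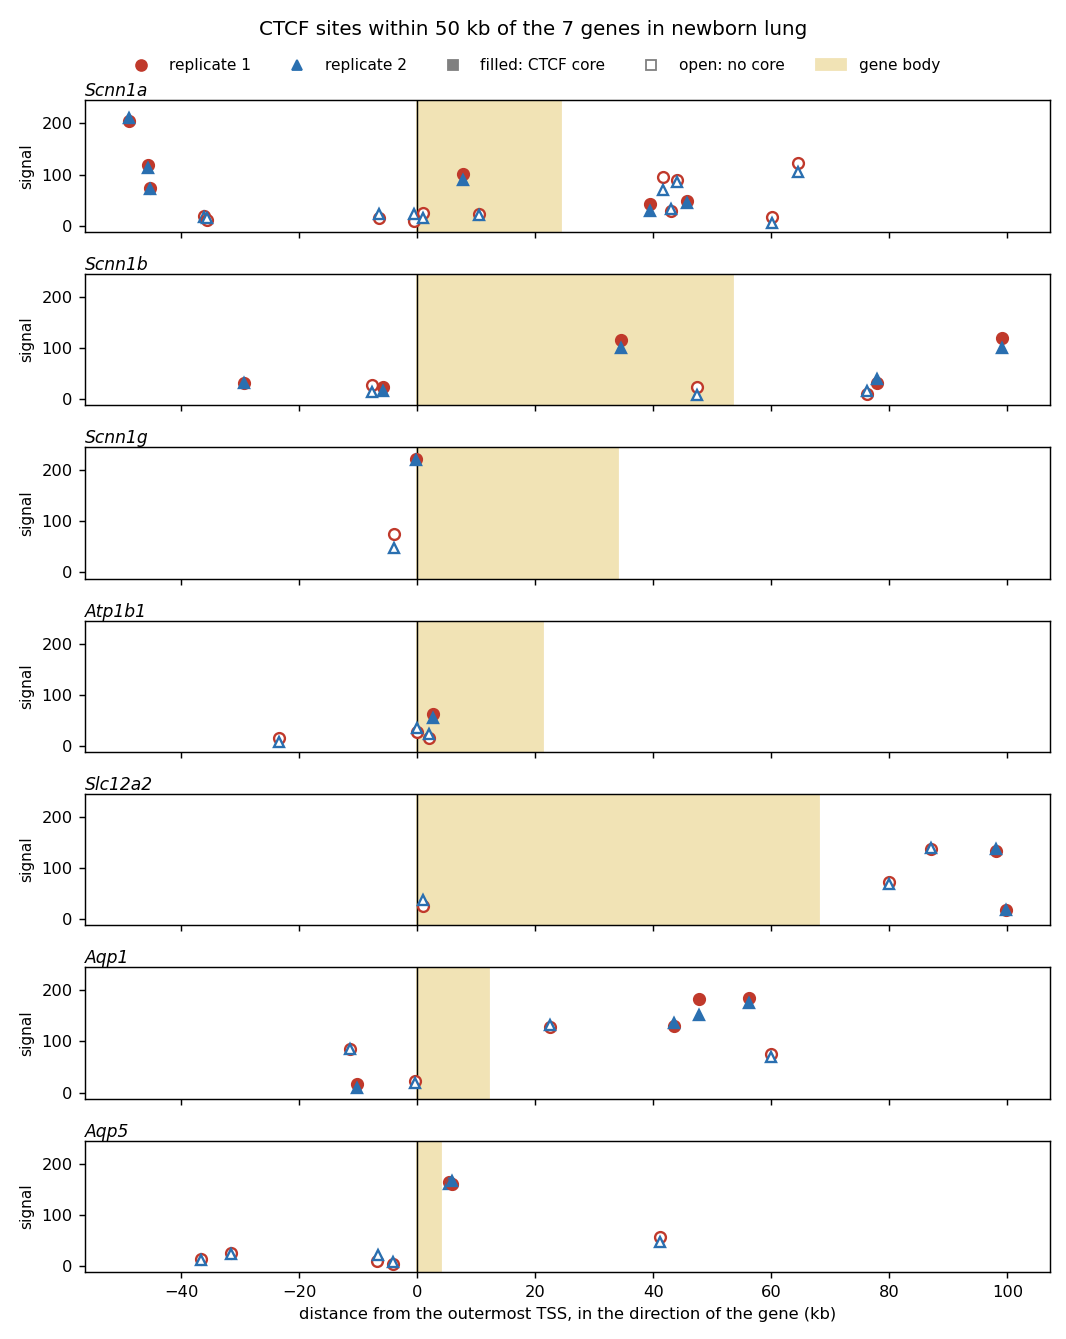
Each panel shows the CTCF sites of 1 gene by distance from its outermost TSS in kb, along the direction of the gene, and the vertical axis is the authors' signal in replicate 1 (circles) and replicate 2 (triangles). Filled marks hold the CTCF core and shading is the gene body. A replicate with no peak within 100 bp of the summit has no mark. The tallest promoter site is that of Scnn1g, at 222 and 219.7, and the sites near Aqp5 with the highest signal lie just past its end.

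Scnn1g and Scnn1b lie beside each other on chromosome 7 of GRCm38, both on the plus strand, at chr7:121734479-121768475 and chr7:121865038-121918514. The promoter site of Scnn1g, at chr7:121734097-121734431 with its summit 209 bp upstream of the only TSS used, gave signals of 222 and 219.7 in replicates 1 and 2. This was the strongest of all 52 sites, and 98.4% of all sites had a lower pooled signal. The replicates differed there by 0.01 on the log2 scale. It held the 12-base CTCF core motif, searched on both strands within 50 bp of each summit with at most 1 mismatch. The sequence around its summit is shown because this site stands at the head of the paired channel genes, and its capitals mark the core, which here has 1 mismatch and runs in the direction of the gene.
Scnn1g promoter site, chr7:121734220-121734320, plus strand: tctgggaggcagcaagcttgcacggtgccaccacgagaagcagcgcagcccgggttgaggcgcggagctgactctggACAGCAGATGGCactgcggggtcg

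The other site of Scnn1g lay 4031 bp upstream, with signals of 74.2 and 47.5 and no core. None was listed in its body or in the 50000 bp past its end. The next listed site on that side lay 67119 bp past the end, with signals of 31.8 and 32.2, and it is also the farthest of the 3 listed sites within 50000 bp upstream of Scnn1b. From the Scnn1g promoter site to that site is a gap of 101324 bp. The median gap between neighbouring sites was 13174 bp over the genome, and 92.8% of gaps were shorter. On the other side, the nearest listed site beyond the 50000 bp lay 93122 bp upstream of Scnn1g, with signals of 139 and 148.

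The genes of the beta and gamma subunits are 96562 bp apart, with 3 listed sites and 1 annotated gene, Gm44740, between them. All 3 of these sites belong to the 50000 bp before Scnn1b. Their signals were 31.8 and 32.2, 27.0 and 13.7, and 23.7 and 15.8 in replicates 1 and 2, so every one of them was far below the Scnn1g promoter site in both replicates. Over the whole 184036 bp from the start of Scnn1g to the end of Scnn1b there were 5 sites.

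Within Scnn1b, the strongest site lay in a coding exon at chr7:121899457-121899654, with signals of 116 and 99.3. It counts as a promoter site because its summit is 319 bp past an internal TSS, which is itself 34190 bp past the outermost one. At the outermost TSS no site was listed, and a pooled peak 199 bp past it, with signals of 6.15 and 7.36, did not reach the optimal list. A second coding exon site had signals of 23.1 and 7.63, among the least even pairs of the 52 sites. Past the gene, 3 sites lay in introns of Cog7, which encodes a subunit of a Golgi tethering complex and is named here after the values were seen. The farthest of them had 119.8 and 100.7, and the nearer pair had 9.06 and 15.8, and 30.9 and 39.5. The cores of the strong exon site and of the farthest Cog7 site are printed, with capitals for the core and 10 bases either side, because they lie on opposite strands around the end of Scnn1b.
Scnn1b exon site, chr7:121899537-121899568, plus strand: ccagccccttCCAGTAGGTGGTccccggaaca
Cog7 intron site, chr7:121964066-121964097, minus strand: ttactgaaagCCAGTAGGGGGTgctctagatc

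Scnn1a, the gene of the alpha subunit, lies on chromosome 6 at chr6:125320659-125344943 on the plus strand and had 17 sites within 50000 bp. This is 13.7 sites per 100000 bp, and 96.3% of genes had fewer per 100000 bp. The median density was 5.21 over the 7 genes and 4.54 over all protein-coding genes. Its window holds 5 protein-coding genes, itself included. Among the 2657 genes with the same number of genes in their window the median was 7 sites, and 94.9% of them had fewer than Scnn1a.

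Both promoter sites of Scnn1a were weak and uneven. The site 592 bp upstream of the first TSS had 8.28 in replicate 1 and 22.6 in replicate 2 and was missing from the stricter conservative list. The site 144 bp past the last TSS, in an untranslated region, had 25.2 and 14.1. Neither held the core with at most 1 mismatch. The strongest site in the body was intronic, at chr6:125328340-125328529, with 100.4 and 89.1 and an exact core in the direction of the gene. A coding exon site had 22.4 and 20.5 and no core. The exact core is shown because it is the only one near the ENaC genes.
Scnn1a intron site, chr6:125328415-125328446, plus strand: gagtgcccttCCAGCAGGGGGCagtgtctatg

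The strongest site near Scnn1a lay 48869 bp upstream, in an intron of the non-coding gene 4930417O13Rik, with 205 and 211. Beside it, 45697 and 45271 bp upstream, were sites with 119.6 and 113, and with 74.2 and 71.7. A weaker pair in an intron of Tuba3a, a tubulin gene, had 19.4 and 17.0, and 11.2 and 14.9. At the promoter of Ltbr, which encodes the lymphotoxin beta receptor, a site 6523 bp upstream of Scnn1a had 14.0 and 23.0. Downstream, 7 sites were listed. An intronic and an untranslated site of Tnfrsf1a, the gene of a receptor of tumour necrosis factor, had 43.0 and 29.5, and 95.4 and 69.8. Plekhg6, a guanine nucleotide exchange factor gene, held 4 sites, from 17.6 and 6.03 at its promoter to 90.2 and 85.3 in a coding exon. The last site, 122 and 105, was intergenic. Strong sites stood at both edges of the Scnn1a window, and those nearest to its starts were among the weakest. Ltbr and Plekhg6 are named because a site lay within 1000 bp of their TSS, and Tuba3a and Tnfrsf1a were named after the values were seen.

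Of the sites with a core near Scnn1a and Scnn1b, 6 held the very same 12 bases, a match found after the values were seen. For a comparison with the whole list, sites on the chromosome of Slc12a2 were left out. Among the other 30031 listed sites with a core, this core was the most frequent, at 5884, or 19.6%. All 6 lay in sequence that is more than 50% repeat-masked (58.4% to 100% of the window). Of all sites with this core 83.2% lay in repeat-masked sequence, against 8.01% of sites with any other core. Signals of all sites with this core had a median of 27.1 in replicate 1 and 24.3 in replicate 2, against 88.6 and 83.7 for sites with another core. The 6 sequences are printed together to show what they share and where they part, with capitals for the shared core.
Scnn1a, 45697 bp upstream, chr6:125274956-125274987, plus strand: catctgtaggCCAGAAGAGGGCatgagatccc
Scnn1a, 45271 bp upstream, chr6:125275354-125275385, plus strand: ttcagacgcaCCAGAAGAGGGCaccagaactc
Tnfrsf1a intron, chr6:125360044-125360075, plus strand: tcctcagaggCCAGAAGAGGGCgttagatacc
Plekhg6 intron, chr6:125366335-125366366, minus strand: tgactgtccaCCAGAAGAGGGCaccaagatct
Scnn1b, 29444 bp upstream, chr7:121835578-121835609, plus strand: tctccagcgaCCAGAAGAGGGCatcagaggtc
Cog7 intron, chr7:121942928-121942959, minus strand: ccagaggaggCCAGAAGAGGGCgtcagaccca

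The signals of these 6 sites ranged from 30.9 to 119.6 in replicate 1 and from 29.5 to 113 in replicate 2, highest in both 45697 bp upstream of Scnn1a. All 6 were above the median given above for sites with this core in both replicates.

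Atp1b1, the gene of the pump's beta 1 subunit, lies on the minus strand of chromosome 1 at chr1:164437109-164458355, and 4 sites were listed. The promoter site, with its summit 40 bp upstream of the outermost TSS, had 27.0 in replicate 1 and 34.1 in replicate 2. No core was found in it. A site in the first part of the gene, 2030 bp past the TSS in an intron, had 14.7 and 22.6. The strongest site, in an intron at chr1:164455601-164455880, had 61.6 and 54.0 and held a core on the strand opposite to the gene. The farthest, 23462 bp upstream, had 14.9 and 6.57 and was weak in both. None of the 4 sites reached 100 in a replicate. Past its end no site was listed within 50000 bp, and the next lay 70189 bp away with 166 and 169. The promoter sequence is shown for a bound start without a core, and the intronic sequence for the one core at this gene, in capitals.
Atp1b1 promoter site, chr1:164458356-164458445, minus strand: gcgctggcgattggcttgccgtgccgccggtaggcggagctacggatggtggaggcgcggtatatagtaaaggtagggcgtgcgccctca
Atp1b1 intron site, chr1:164455714-164455745, plus strand: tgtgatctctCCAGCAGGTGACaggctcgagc

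Aqp1, which encodes the water channel aquaporin 1, lies on chromosome 6 at chr6:55336432-55348555 on the plus strand and had 8 sites, none in its body. The promoter site, 364 bp upstream of the TSS, had 22.1 in replicate 1 and 18.9 in replicate 2 and no core. Upstream, a site at 11507 bp had 84.5 and 84.4, and one at 10292 bp had 16.3 and 8.74. All 5 downstream sites were stronger than the promoter site in both replicates. The first lay 10286 bp past the end of the gene, with 129 and 132. The next were in an intron and in a coding exon of Ghrhr, the gene of the growth hormone-releasing hormone receptor, with 129 and 137, and 182 and 152. Beyond Ghrhr, a site had 185 and 175 and the last had 76.1 and 69.1. Ghrhr was named after the values were seen. Exact cores were found at the Ghrhr intron and beyond Ghrhr, and between them the exon site held a core on the other strand. These 3 cores, in capitals, are shown because their strands alternate.
Ghrhr intron site, chr6:55379864-55379895, plus strand: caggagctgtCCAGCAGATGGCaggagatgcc
Ghrhr exon site, chr6:55384127-55384158, minus strand: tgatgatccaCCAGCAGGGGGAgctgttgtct
Site beyond Ghrhr, chr6:55392598-55392629, plus strand: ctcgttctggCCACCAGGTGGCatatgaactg

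Aqp5, which encodes the water channel of alveolar type 1 cells, is a short gene of 4048 bp at chr15:99590782-99594829 on the plus strand of chromosome 15. It was the only one of the 7 genes with no listed site at a TSS, and it had none in its body. Below the optimal list, a pooled peak 15 bp past an internal TSS had 6.40 in replicate 1 and no peak in replicate 2. The listed site nearest to a TSS, 4197 bp upstream, had 3.62 and 7.11. Among those of the 52 sites with a peak in both replicates, it was the weakest by pooled signal and in replicate 1. In replicate 2 the Plekhg6 promoter site (6.03) and the farthest site of Atp1b1 (6.57) were lower. Farther upstream, an adjoining pair in the last part of Aqp2, the gene of the kidney's vasopressin-regulated water channel, had summits at positions 99583963 and 99584164. The first is in a coding exon and the second in an untranslated region. The first had a peak of 10.5 in replicate 1 only and the second a peak of 21.3 in replicate 2 only, so neither was matched between the replicates. The remaining upstream sites had 14.1 and 12.5, and 24.8 and 22.5.

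Just past the end of Aqp5 stood a pair of sites of a different kind. The first, at chr15:99596032-99596285, had 164 and 160.1 and began the downstream side 1328 bp past the gene. The second, at chr15:99596445-99596728, had 159.6 and 167. Their summits were 432 bp apart, and both held an exact core in the direction of Aqp5. Among the 4512 sites with an exact core in the highest 25% of signal, this was the only pair within 500 bp of each other, a comparison made after the pair was seen. With at most 1 mismatch there were 17 such pairs among 11356 sites. Aqp6, another aquaporin gene, starts 4811 bp past the second summit. Both sequences are printed because the cores match at 12 of 12 bases while the bases around them match at 24 of 90 (26.7%), and the capitals mark the core.
Aqp5 first downstream site, chr15:99596108-99596209, plus strand: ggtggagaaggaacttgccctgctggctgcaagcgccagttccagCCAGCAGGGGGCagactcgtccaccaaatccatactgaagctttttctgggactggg
Aqp5 second downstream site, chr15:99596540-99596641, plus strand: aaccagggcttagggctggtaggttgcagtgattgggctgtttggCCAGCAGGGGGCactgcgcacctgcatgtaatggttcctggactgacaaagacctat

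The last site of the Aqp5 window, in an intron of Racgap1, a cytokinesis gene, had 57.2 and 46.3. Aqp2, Aqp6 and Racgap1 are named here because they neighbour the sites, chosen after the values were seen. Both sites of the downstream pair exceeded every upstream site of Aqp5 in both replicates.

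Slc12a2, the gene of the chloride-importing cotransporter, is the longest of the 7, at 68144 bp, and lies at chr18:57878678-57946821 on the plus strand. Of its 5 sites, 1 was in the body, 989 bp past the TSS in an intron, with 26.1 in replicate 1 and 38.4 in replicate 2 and no core. It counts as a promoter site by a narrow margin, since the limit is 1000 bp. Nearer the TSS, at 117 bp, a site of the conservative list alone had 10.2 and 10.9. No site was listed in the 50000 bp upstream, and the next on that side lay 120632 bp away with 17.9 and 12.7. Past the end of the gene, sites had 72.5 and 68.1, 138 and 139, 134 and 137, and 18.4 and 17.2. The pair of strong sites lay downstream, and the replicates agreed closely there. In the optimal list, sites at this gene thus lay near the start and past the end, with none in between. This depends on the list: among the 64732 highest peaks of replicate 2 alone, 3 lay in the body. A pooled peak in the body, 32716 bp past the TSS, had 7.76 and 11.6 and held the core, but did not reach the optimal list.

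Promoter sites of the 7 genes fell into a strong pair and a weak rest. The Scnn1g site, and the Scnn1b site at its internal start, held the core and had 222 and 219.7, and 116 and 99.3, in replicates 1 and 2. The other 5 promoter sites held no core and ranged from 8.28 to 27.0 in replicate 1 and from 14.1 to 38.4 in replicate 2. The core was found at 2 of 7 promoter sites of these genes (28.6%, 95% Wilson interval 8.22 to 64.1, counting error only), against 20.6% of all 10482 promoter sites. A second measure was a 24-base weight matrix learned from sites with the core outside the windows of the 7 genes. Its limit was the score passed by 1% of windows 1000 bp from sites. By it the Scnn1g site passed (score 18.1) and the Scnn1b site did not (11.5). The share was then 14.3%, against 17.0% of all promoter sites. Their median signal was 26.1 in replicate 1 and 34.1 in replicate 2, against 31.4 and 29.2 for all promoter sites. Median GC content was 58.1%, against 61.1%.

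Away from the promoters of the 7 genes, 45 sites held the core at 42.2% (Wilson 29.0 to 56.7), against 53.7% of all sites not at a promoter. The sets are not quite alike, since the 45 include the 2 sites at the promoters of Ltbr and Plekhg6, neither with the core. Over all 52 sites the core was found at 21, or 40.4% (28.2 to 53.9), against 48.3% of the whole list. The Wilson interval of the 52 sites includes the share of the whole list. By the weight matrix, 46.2% of the 52 sites passed, against 47.5% of all other sites. For the 45 sites it was 51.1%, against 53.3% of all sites not at a promoter. The 2 measures differ at single sites: the Atp1b1 intron core failed the matrix (10.4) and the Plekhg6 promoter site passed it (14.4). An exact core was found at 5 sites, against 12.4% of the whole list, and 1.28% of windows placed 1000 bp to either side of the sites held a core by the same search. The 21 cores lay on the plus strand at 15 and on the minus strand at 6. Relative to the gene they were assigned to, 14 ran in its direction and 7 in the opposite one. All cores of Scnn1g, Aqp5 and Slc12a2 ran with the gene, and the single core of Atp1b1 ran against it.

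**Figure D2:**
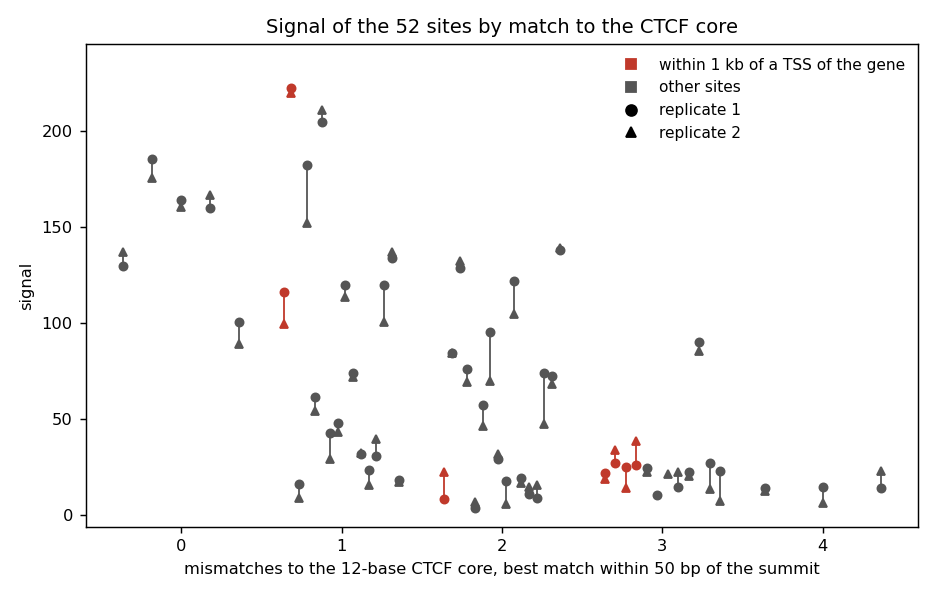
Each of the 52 sites is plotted by the mismatches of its best match to the CTCF core near the summit, spread sideways to separate points, against the authors' signal in replicate 1 (circles) and replicate 2 (triangles), joined by a line. Red marks are promoter sites of the 7 genes: those with 1 mismatch, at Scnn1g and Scnn1b, stand above the 5 with more mismatches.

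A signal above 100 in both replicates was found at 13 of the 52 sites, against 24.6% of all sites, and 10 of those 13 held the core, against 70.2% of all such sites, so strong sites mostly carried the core here as in the whole list. The median signal of the 52 sites was 43.0 in replicate 1 and 39.5 in replicate 2, against 40.8 and 37.5 for all other sites. Their median GC content was 52.5%, against 48.8%. Repeat-masked sequence made up more than 50% of the window at 8 sites (15.4%), against 15.5%.

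In the RefSeq promoter table of GRCm38.p6, which covers 250 bases before and 50 after a start, 5 of the 7 genes were found. The core, with at most 1 mismatch on either strand, was present in 1 of these 5, Scnn1g, against 5.09% of 26794 genes in the table.

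The number of sites around the genes ran from 2 to 17. The median was 8 sites for the 7 genes, against 6 for all protein-coding genes. Scnn1b, Aqp1 and Aqp5 had 8 each, more than 59.0% of genes. Slc12a2 had 5 and Atp1b1 had 4, more than 36.5% and 29.5% of genes. Scnn1g, with 2, had more than 17.7%, although its promoter site was the strongest of the 52 sites. Across all protein-coding genes the number of coding genes in the window went with the number of sites (Spearman's rho 0.32, a description across genes that share windows).

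**Figure D3:**
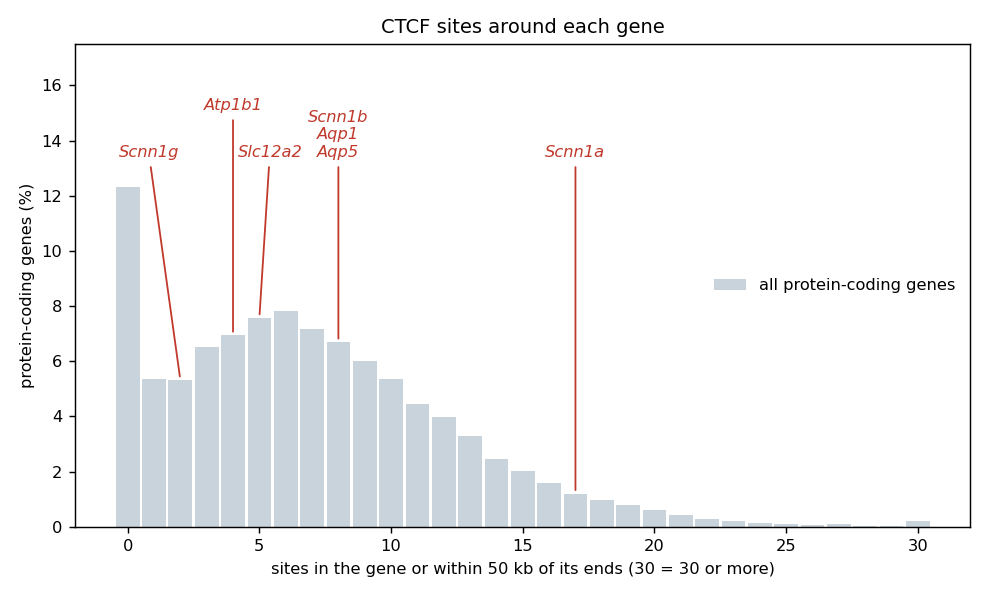
The bars give the percent of all protein-coding genes (vertical axis) with each number of CTCF sites in the gene or within 50 kb of its ends (horizontal axis, 30 or more together), and the red labels mark the 7 genes. Scnn1a, with 17 sites, lies in the upper tail, and the other 6 have 2 to 8.

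The replicates matched closely at strong sites and poorly at weak ones. Over the 50 sites with a peak in both, the log2 ratio of replicate 1 to replicate 2 had a median of 0.09 and an SD of 0.56, against 0.09 and 0.46 for all other sites. In the highest 25% of signal the SD was 0.12 for the 14 sites of the 7 genes, against 0.13 for other sites. In the lowest 25% it was 1.07 for 11 sites, against 0.72. A difference of more than 2-fold was found at 4 of the 50 sites, against 5.44% of all sites, and all 4 were in the lowest 25%: the upstream promoter site of Scnn1a, the Plekhg6 promoter site, the weak exon site of Scnn1b and the farthest site of Atp1b1. The conservative list held 43 of the 52 sites (82.7%), against 87.4% of all. The 9 sites outside it had pooled signals of 12.5 to 32.9.

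**Figure D4:**
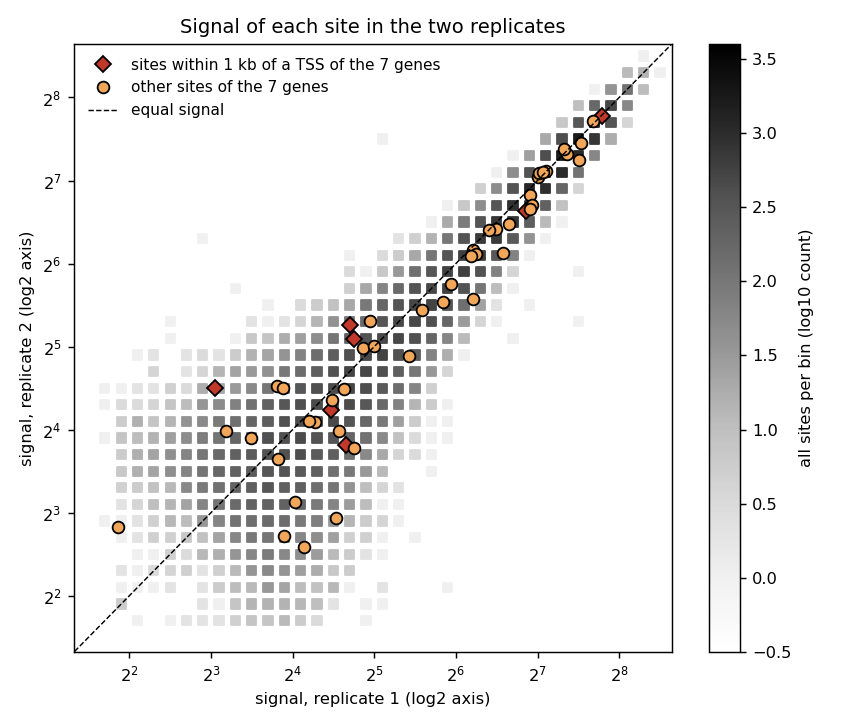
The authors' signal in replicate 1 (horizontal, log2 axis) is plotted against that in replicate 2 (vertical, log2 axis) for the 50 sites of the 7 genes with a peak in both, over all sites in grey bins shaded by the log10 of their count. The dashed line is equal signal: strong sites lie on it, and the promoter site with 8.28 and 22.6, at Scnn1a, is among those farthest from it.

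Other genes of the same physiology were set beside the 7, in 5 lists with 49 members in all. A promoter site was listed at 27 of the 49 (55.1%), against 39.8% of all protein-coding genes. Regulators of sodium entry, which include kinases, ubiquitin ligases and channel-activating proteases, had one at 7 of 13. Their strongest were at Usp2, a deubiquitinase gene, with 172 and 182 in replicates 1 and 2, at the kinase gene Sgk1 with 155 and 153, and at Nedd4l, whose product ubiquitinates ENaC, with 129 and 143. The Sgk1 site lay 111055 bp past its outermost TSS, at an alternative start.

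Pump subunits and modulators had a promoter site at 4 of 8. Among them Fxyd1, which encodes a pump modulator, had 40.0 and 28.4, and the beta 3 subunit gene Atp1b3 had 11.4 and 16.0. Chloride and potassium channels and transporters had one at 9 of 14, with 91.9 and 96.0 at Clcn3, 69.4 and 73.0 at Oxsr1, a kinase gene acting on NKCC1, and 60.8 and 51.8 at an internal start of the chloride channel gene Ano1.

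None of the 6 other water channel genes had a promoter site, and Aqp1 alone of the aquaporins examined had one. Hormone receptors and a steroid enzyme had one at 7 of 8. Among them, the dopamine receptor gene Drd1 had 124 and 107, the glucocorticoid receptor gene Nr3c1 had 79.9 and 89.9 at an internal start, and the thyroid hormone receptor gene Thrb had 41.5 and 35.8. No test was made of these counts.

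By likeness of pattern, measured as the distance over counts of promoter, body and flanking sites and the strongest signal in each replicate, the nearest of the 49 genes were found. Aqp5 was nearest to Aqp6 (distance 0.24), whose window overlaps its own and shares the downstream pair. Slc12a2 was nearest to Atp1b3 (0.27) and Aqp1 to the adrenergic receptor gene Adrb1 (0.52). The distances were larger for 3 others: Scnn1b was nearest to Atp1b3 (1.02), Scnn1g to the potassium channel gene Kcnk1 (1.14) and Atp1b1 to the chloride channel gene Cftr (1.67).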

How the data were processed

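CTCF ChIP-seq peak lists of 2 replicates were analysed. Per the labels, the assembly is mm10. Not given in the sources used here are the aligner, the peak caller with its settings, the scaling of the signal and the IDR limit. The authors deposited a signal per peak in every list, the −log10 of its q-value, at most 5.08 at these sites, and the summit's offset. The optimal list holds 64742 peaks, each replicate list 300000. From these, values per replicate were those of the tallest replicate peak at most 100 bp from the summit. Sites on other contigs were left out. Genes and TSSs of protein-coding transcripts came from GENCODE M21, sequence from GRCm38.p6. The core motif of 12 bases was searched with at most 1 mismatch on both strands in 101 bp. Shares have 95% Wilson intervals. With 1 group no test was made, and results are counts, medians and both replicates' values beside those of all genes or sites. Members and lists were chosen with earlier results of these data known. Genes named were the 7, coding genes with a TSS within 1000 bp of their sites, the 3 genes per list ranked highest by promoter signal over both replicates, and the nearest pattern of each member; other names are marked as chosen afterwards. Some genes that this rule picks are not reported here. Alternatives were other site lists, each replicate alone, distances, TSS sets, motif limits, the weight matrix and summit matches. Python 3.11.15, numpy 2.4.6, pandas 2.3.3, scipy 1.17.1, statsmodels 0.14.6 and matplotlib 3.10.9 were used, and the measures were tested on simulated data.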

Additional observations from a re-analysis of the deposited data

Results flagged for a closer look

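Peaks of the pooled list that did not reach either IDR list were not part of the counts above. Within 50000 bp of the 7 genes there were 158 of them, of which 38 had a peak in both replicates. Peaks within 2000 bp of a listed site were left out, so these values do not cover weak peaks beside listed sites. The core motif was found at 12 of the 158 (7.59%, Wilson interval 4.40 to 12.8), against 4 of 316 windows placed 1000 bp to either side of them (1.27%, 0.493 to 3.21). Their median pooled signal was 7.99 and the highest was 23.4. The share lies above that of the flanking windows and below the 40.4% of the 52 listed sites, and the difference was not tested.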

How the results depend on the processing

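The count of 6 genes with a promoter site was 2 among the 32366 sites highest in signal, where 19.2% of all protein-coding genes had one, and 5 to 7 under every other setting tried. The share of all protein-coding genes was 38.0% in the conservative list, 40.3% without replicate 2 and 40.4% without replicate 1. It was not computed for other TSS distances, including the 5000 bp at which the count was 7. The number of sites, 52, was 25 among those sites and 34 with a flank of 25000 bp. The core share, 40.4%, was 60.0% among those sites, 9.62% with 0 mismatches and 71.2% with 2 mismatches. By the weight matrix in place of the core it was 46.2%, against 47.5% of all other sites. The median signal, as the mean of both replicates, was 35.7, and it was 57.8 in the conservative list, 110.2 among those sites and 41.1 with summits matched within 50 bp. With each replicate's own 64732 highest peaks it was 38.9 without replicate 1 and 43.0 without replicate 2, the number of sites was 52 and 51, the core share was 36.5% and 41.2%, and the promoter count was 6 in both. The promoter site of Scnn1g was present in 10 of 10 settings and that of Scnn1b in 9 of 10, being lost with 1 TSS per gene. Aqp5 gained a promoter site in 1 of 10 settings, a distance of 5000 bp. Of 154 counts for single genes under other settings, 118 stayed within 1.5 times and 36 moved further. No paired analysis was possible because there was 1 group. Depth is unknown, and weak sites, where the replicates differed most, are the least certain.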

Other observations

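Weak peaks that reached neither IDR list surrounded the genes with few listed sites as well. Aqp1 had 33 of them, Scnn1a 31, Scnn1b 24, Atp1b1 22, Aqp5 20, Slc12a2 17 and Scnn1g 12. Of these, 1 peak was counted at both Scnn1b and Scnn1g. Peaks within 2000 bp of a listed site were left out, which removes more at genes with many listed sites. The windows also differ in length, so the counts cannot be compared between genes. The highest of these peaks, at chr7:121702111-121702390 upstream of Scnn1g, had signals of 15.5 in replicate 1 and 7.11 in replicate 2. The conservative list held 1 further site near Scnn1a that the optimal list did not, with 8.84 and 7.68.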
